A study of Mus musculus with 144 samples.

Results

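Bulk RNA sequencing was used to compare glomerular endothelial cells (gECs) of WT and ob/ob mice on the BTBR background at 18 weeks of age. The members are the 14 libraries that the labels give as glomerular endothelial cells at 18 weeks, 7 of genotype BTBR ob/ob and 7 of genotype BTBR +/+, among 144 samples in the series. BTBR ob/ob mice lack functional leptin and become obese, insulin resistant and hyperglycemic, and they serve as a model of type 2 diabetic nephropathy (DN). Per the study's methods, both genotypes carried the podocyte reporter Gt(ROSA)26Sor tm4(ACTB-tdTomato,-EGFP) with a Cre transgene active in podocytes, so that EGFP marks podocytes in WT and ob/ob mice alike. Glomeruli were isolated and dissociated with enzymes, and gECs were sorted as CD45 negative, EGFP negative, CD73 negative and PODXL positive cells. The WT group held 3 female and 4 male libraries and the ob/ob group held 4 female and 3 male libraries. Nothing in the labels says whether each library came from its own mouse, so p-values measure the spread between libraries.

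The glomerular capillary is lined by a flat, fenestrated endothelium that shares a basement membrane with the podocytes and lies against the mesangium. Its windows lack the diaphragm protein PLVAP, which closes the openings of peritubular capillaries and veins. These cells control vascular tone through endothelin, prostacyclin and nitric oxide, admit leukocytes through selectins and other adhesion molecules, and build part of the matrix of the filtration barrier.

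At 18 weeks, 1130 of 18304 tested genes (6.17%) were called at an adjusted p below 0.05 in the quasi-likelihood fit of edgeR, adjusted by the method of Benjamini and Hochberg. Of these, 731 genes (3.99% of those tested) were higher and 399 (2.18%) were lower in ob/ob gECs, and 299 of the called genes changed at least 2-fold. Each count of called list members below is to be read beside these shares of all tested genes. The libraries of both genotypes did not overlap for 505 genes (2.76%), of which 451 were called, 292 higher and 159 lower. On deposited TPM with limma, 911 genes were called, 367 higher and 544 lower. With summed marker lists of 4 other cell types as covariates, 963 genes were called, 499 higher and 464 lower. The podocyte sum among these covariates had a WT median of 5057 CPM with Podxl, on which gECs were sorted, and 1672 CPM without it. This setting therefore cannot tell RNA of other cells from that of gECs. With RLE in place of TMM size factors, 735 were higher and 415 lower. The median log2 fold change over all tested genes was -0.01 on counts and -0.09 on TPM.

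**Figure D1:**
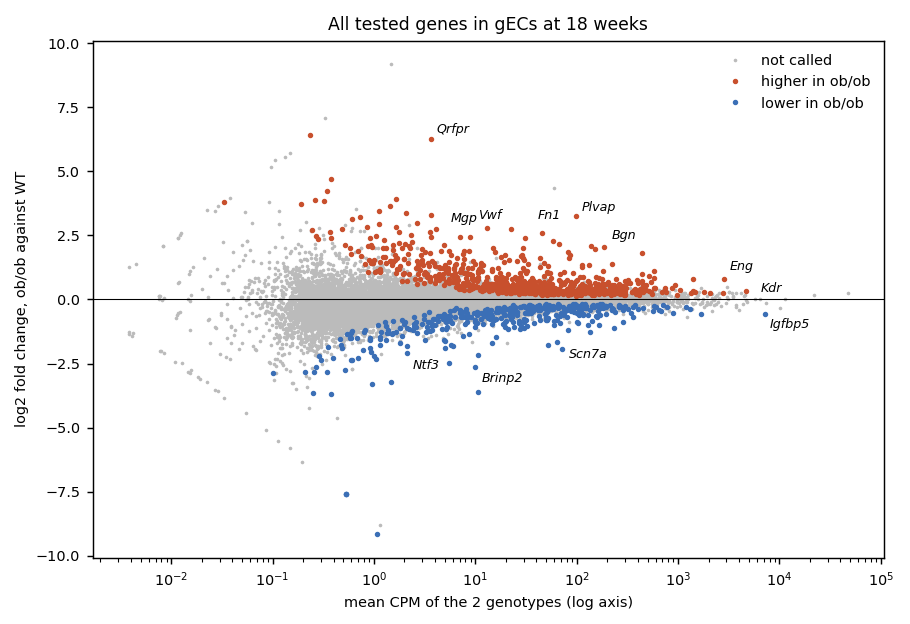
Each point is 1 of 18304 tested genes, with the mean CPM of both genotypes on the horizontal log axis and the log2 fold change of ob/ob against WT gECs on the vertical axis. Red points were called higher (731) and blue points lower (399) in ob/ob, gray points were not called, and Plvap and Vwf stand among the largest rises.

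The libraries were checked against markers before the genes were read. Total counts ran from 15416316 to 20482619 in WT and from 15974763 to 18762175 in ob/ob, and the mitochondrial share of counts was 6.93% to 8.20% in WT and 7.845% to 9.56% in ob/ob. The 27 glomerular endothelial markers summed to between 31270 and 36300 CPM (counts scaled to the library total) in WT and between 33570 and 39580 CPM in ob/ob, so every library carried the labeled cell type. Ehd3, which marks glomerular against other renal endothelium, had a median of 2818 CPM in WT and 2492 CPM in ob/ob (adjusted p = 0.298). Ptprc, which encodes the CD45 used to exclude leukocytes, never exceeded 0.64 CPM, and Podxl, the antigen used to select gECs, reached at least 2897 CPM in every library. Podocyte markers other than Podxl summed to 1416 to 1875 CPM in WT and 1202 to 2395 CPM in ob/ob, a sum carried by Clic5 at WT and ob/ob medians of 1007 and 958 CPM. Of 14 podocyte markers, 0 were called by edgeR or DESeq2 and 2 had an unadjusted p below 0.05, while 1 was lower on TPM and 1 was higher and 2 lower with marker covariates. The slit diaphragm gene Nphs1 had medians of 55.4 CPM in WT and 12.5 CPM in ob/ob, where it ran from 4.91 to 137 CPM, and Wt1, Ptpro and Plce1 likewise had lower medians and a wider range in ob/ob.

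The library of ob/ob male 1 stood apart in its proximal tubule transcripts. Lrp2, which encodes the endocytic receptor megalin, was at 23.9 CPM there and at most 1.66 CPM in the other ob/ob libraries, and Slc34a1, the sodium phosphate cotransporter of the proximal tubule, was at 23.2 CPM against at most 1.66 CPM. Of 9 tested proximal tubule markers, 4 were called higher and 1 lower with this library (median log2 fold change 1.47), and 1 higher and 1 lower without it (median 0.03). Without ob/ob male 1, 998 genes were called across the comparison, and 932 of the 1130 calls (82.5%) remained. All genes described as rising or falling below were also called without it unless stated otherwise.

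**Figure D2:**
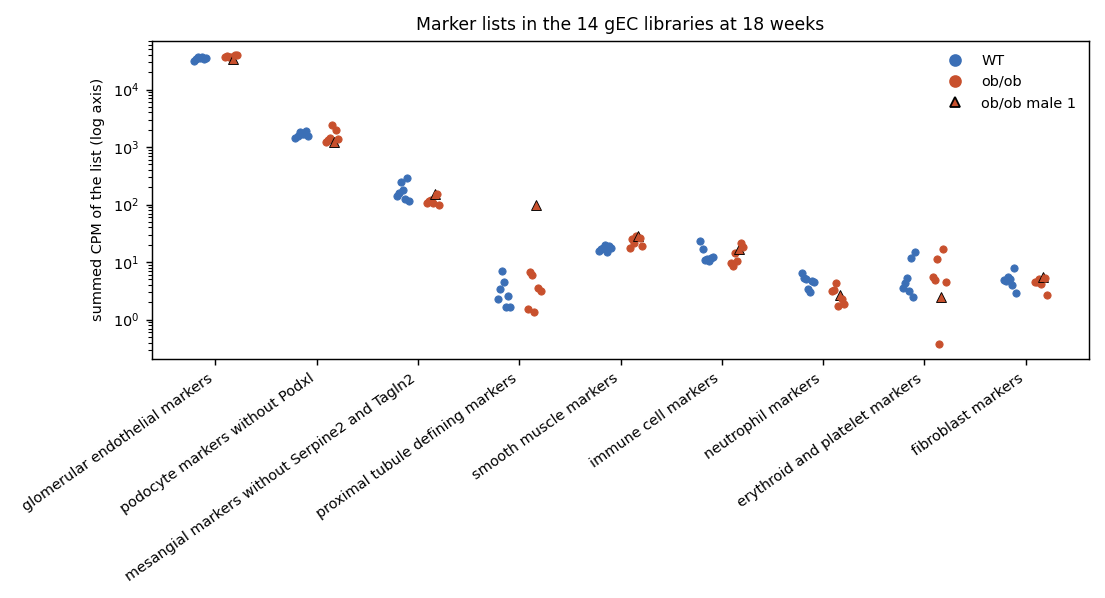
Summed CPM of marker lists (log axis) in each of the 14 gEC libraries, WT in blue and ob/ob in red, with ob/ob male 1 as a triangle. The proximal tubule defining markers, which leave out Aqp1, Gatm and Ass1 and were chosen after values were seen, reached 99.6 CPM in ob/ob male 1 and at most 7.05 CPM in the other libraries.

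Plvap had the largest log2 fold change among the tested markers of peritubular and venous endothelium. It encodes the diaphragm protein of fenestrae and caveolae and was at 13.6 CPM in the lowest, 19.2 CPM in the median and 23.8 CPM in the highest WT library, against 113, 171 and 277 CPM in ob/ob. Every ob/ob library therefore lay above every WT library, and the log2 fold change was 3.25 ± 0.24 (SE, adjusted p = 1.48e-13). The fold change was 9.51, and it was 3.14 on the log2 scale without ob/ob male 1. Of the 10 tested members of that marker list, 7 were higher and 1 was lower in ob/ob (median log2 fold change 1.18). The gene lies at chr8:71497765-71511752 on the minus strand of GRCm38.

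The other members of that list moved with Plvap to different degrees. Vwf, which encodes von Willebrand factor for platelet capture, was at 4.00, 5.61 and 9.81 CPM in WT and at 24.7, 29.6 and 64.8 CPM in ob/ob (lowest, median and highest). Selp encodes P-selectin and rose from a median of 0.42 CPM to 3.45 CPM (log2 fold change 2.51 ± 0.51, adjusted p = 0.00066). The ranges of Vwf and Selp in both genotypes did not overlap. Igfbp3, a carrier of insulin-like growth factors, ran from 6.00 to 17.4 CPM in WT and from 23.6 to 101 CPM in ob/ob (2.41 ± 0.31, adjusted p = 2.23e-07). Gpihbp1 carries lipoprotein lipase across capillary endothelium and had medians of 39.5 and 137 CPM (1.73 ± 0.17, adjusted p = 3.49e-10). Igfbp5, by far the most abundant member at a WT median of 8460 CPM, went the other way and fell by 0.55 ± 0.12 on the log2 scale (adjusted p = 0.00121). The summed level of the list, which Igfbp5 dominates, ran from 8493 to 9941 CPM in WT and from 5525 to 8923 CPM in ob/ob, with overlap, while most of its members were higher. Ackr1, a defining gene of venules, was at 0 in all 14 libraries.

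Arterial and arteriolar markers also held several rises. Of 12 tested, 7 were higher and 0 lower (median log2 fold change 0.74). Without ob/ob male 1, 6 were higher, and the call of Gja5 was lost (adjusted p = 0.0997), and on TPM 4 were higher. Fbln5, an elastic fiber protein, was at 12.1, 19.0 and 31.8 CPM in WT and 57.7, 93.9 and 141 CPM in ob/ob, without overlap. Fbln2, another fibulin, ran from 21.1 to 63.4 CPM in WT and from 74.8 to 204 CPM in ob/ob (log2 fold change 1.86 ± 0.23, adjusted p = 1.50e-07). Bmx, a kinase of arterial endothelium, had medians of 0.97 and 3.29 CPM (2.09 ± 0.44, adjusted p = 0.00114), and Cxcl12, a chemokine, had medians of 9.13 and 21.8 CPM (1.22 ± 0.29, adjusted p = 0.00437). In bulk libraries, more cells of a type and more RNA per cell cannot be told apart.

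Glomerular endothelial markers moved in both directions, with 7 of 27 higher and 3 lower (median log2 fold change 0.02). Without ob/ob male 1, 7 were higher and 1 lower, on TPM 3 were higher and 4 lower, and with marker covariates 3 were higher and 5 lower. Kdr, the main VEGF receptor, had medians of 5826 and 5759 CPM (log2 fold change 0.02 ± 0.08, adjusted p = 0.946), and Flt1, the decoy VEGF receptor, had medians of 2180 and 1976 CPM (adjusted p = 0.42). Emcn, the mucin endomucin, had medians of 1791 and 1573 CPM (adjusted p = 0.145). Eng rose within this list: the TGF-beta coreceptor endoglin was at 1700, 2210 and 2306 CPM in WT and 3071, 3748 and 4300 CPM in ob/ob, without overlap (0.81 ± 0.10, adjusted p = 6.19e-08). Pecam1 and Cdh5, adhesion proteins of all endothelium, rose by 0.29 ± 0.08 (adjusted p = 0.0244) and 0.24 ± 0.07 (adjusted p = 0.0239). Both lost the call with marker covariates (adjusted p = 0.618 and 0.588), of which Podxl, the antigen used to select gECs, is a part.

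The 12 largest rises by the naming rule were Qrfpr, Mgp, Blk, Fn1, Tmem252, Ptgis, Irx5, Cd93, Bgn, Plxnc1, Sele and Stard13. The rule took genes called both with and without ob/ob male 1, with a mean of at least 5 CPM in the higher group and no overlap between genotypes, and it left out marker genes of other cell types. The absence of overlap in these genes follows from that rule. All 24 genes that it gave for both directions kept their call and direction in each of 22 alternative analyses, of which that without ob/ob male 1 was part of the rule. The rule made this likely in the others too, since it chose large changes without overlap in the same libraries.

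Qrfpr had the largest fold change. It encodes a G protein-coupled receptor for the neuropeptide QRFP and was at 0.05, 0.06 and 0.24 CPM in WT, a few reads per library, against 0.60, 7.08 and 15.7 CPM in ob/ob. The log2 fold change of 6.27 ± 0.70 (adjusted p = 1.27e-08) is imprecise because of the low WT counts, and on log2(TPM + 0.5) it was 3.44. Mgp, the matrix Gla protein that inhibits BMP and calcification, was at 1.13, 2.46 and 8.86 CPM in WT and 10.5, 21.5 and 40.8 CPM in ob/ob. Blk, a kinase of the Src family best known in B cells, ran from 0.27 to 1.86 CPM in WT and from 5.07 to 8.63 CPM in ob/ob. Its rise stood beside immune cell markers that summed to 10.5 to 23.5 CPM in WT and 8.62 to 21.1 CPM in ob/ob, with Cd3e and C1qb at 0 in all 14 libraries. Of 7 tested immune markers, Cd74 was called higher and Csf1r lower, and the call of Csf1r was lost without ob/ob male 1 (adjusted p = 0.0808). Cd93, a C-type lectin receptor of endothelium that binds matrix and acts in angiogenesis, was at 39.7, 53.5 and 71.3 CPM in WT and 176, 213 and 291 CPM in ob/ob (2.09 ± 0.15, adjusted p = 1.48e-13). Plxnc1, the receptor for semaphorin 7A, ran from 10.1 to 14.1 CPM in WT and from 37.0 to 77.9 CPM in ob/ob. Irx5, a homeobox transcription factor, had medians of 1.98 and 7.14 CPM, and Stard13 had medians of 3.36 and 12.3 CPM.

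The 12 largest falls were Brinp2, Ntf3, Wnk2, Scn7a, Htr7, Smtnl2, Erc2, Akap6, Adamts16, Cacna1c, Tgfbi and Sez6l2. Several of these genes are known from excitable cells. Brinp2, named for an induction by BMP and retinoic acid in neurons, was at 11.6, 16.3 and 24.6 CPM in WT and 1.75, 2.14 and 4.76 CPM in ob/ob (log2 fold change -2.65 ± 0.24, adjusted p = 1.78e-10). Ntf3, the growth factor neurotrophin 3, fell from a median of 9.83 CPM to 1.19 CPM (-2.49 ± 0.30, adjusted p = 7.53e-08). Scn7a, a sodium channel gene, was at 73.4, 102 and 171 CPM in WT and 13.4, 28.8 and 39.2 CPM in ob/ob. Htr7, a serotonin receptor, had medians of 7.61 and 2.16 CPM, and Cacna1c, the pore subunit of the L-type calcium channel, fell from a median of 7.30 CPM (-1.60 ± 0.23, adjusted p = 2.75e-06). Erc2, a scaffold of presynaptic active zones, ran from 66.9 to 95.9 CPM in WT and from 14.5 to 35.7 CPM in ob/ob. Akap6, an anchor of protein kinase A, ran from 15.3 to 29.4 CPM in WT and from 4.45 to 10.7 CPM in ob/ob. Adamts16, a secreted metalloprotease, was at 74.3, 98.3 and 122 CPM in WT and 18.6, 30.5 and 43.8 CPM in ob/ob (-1.66 ± 0.19, adjusted p = 3.44e-08). Tgfbi, a matrix protein named for its induction by TGF-beta, ran from 17.2 to 30.3 CPM in WT and from 5.20 to 14.2 CPM in ob/ob.

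**Figure D3:**
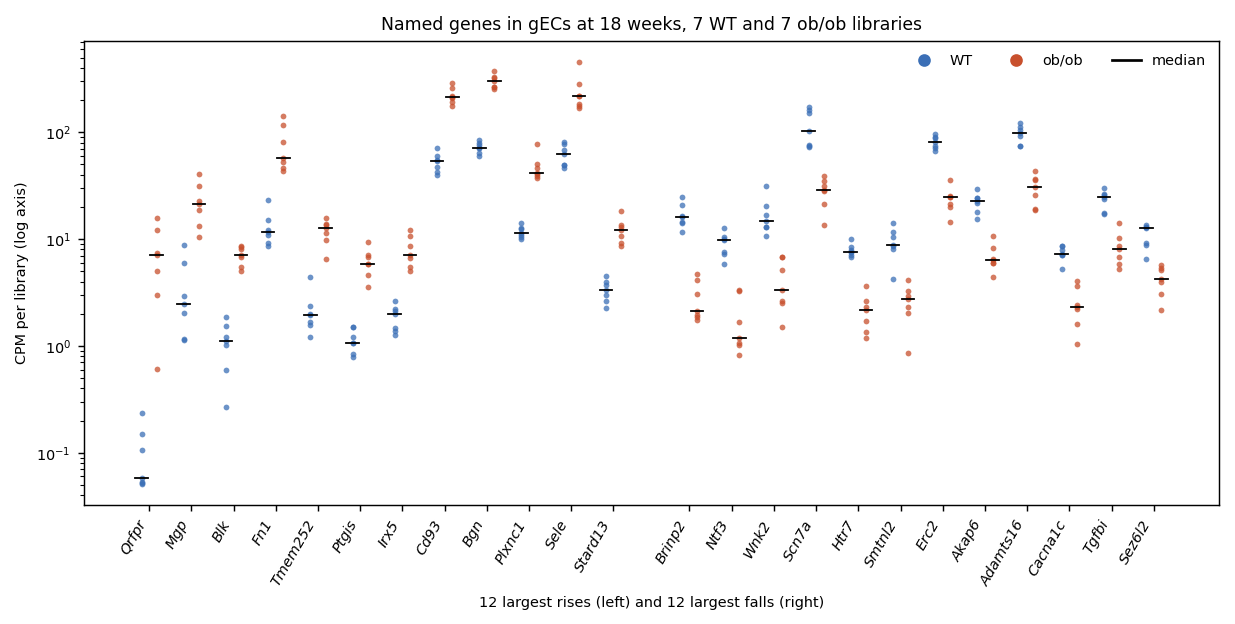
CPM of the 12 largest rises and 12 largest falls on a log axis, 1 point per library, WT in blue and ob/ob in red, with a black bar at the median of 7 libraries. The genotypes do not overlap for any of these genes by the rule that chose them, and Qrfpr in WT rests on a few reads per library.

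Genes of leukocyte adhesion and NF-kB inflammation were next. Of 23 tested members, 7 were higher and 0 lower (median log2 fold change 0.42), beside 3.99% of all genes higher, and 5 were higher on TPM and 4 with marker covariates. Sele encodes E-selectin, which lets leukocytes roll on activated endothelium, and was at 46.3, 63.1 and 80.8 CPM in WT and 168, 217 and 456 CPM in ob/ob (1.97 ± 0.26, adjusted p = 5.15e-07). Vcam1, the ligand of leukocyte integrins, was at 4.16, 6.05 and 8.36 CPM in WT and 8.53, 16.1 and 27.2 CPM in ob/ob (1.44 ± 0.27, adjusted p = 0.000253). Icam1, which acts beside it, overlapped between genotypes with medians of 165 and 220 CPM (0.46 ± 0.25, adjusted p = 0.33). Il6, an inflammatory cytokine, had medians of 2.94 and 6.74 CPM (adjusted p = 0.0127) and lost its call without ob/ob male 1 (adjusted p = 0.0626). Ccl2, a monocyte chemokine, was called at levels of at most 0.15 CPM in WT and 3.15 CPM in ob/ob, with a median of 0 in WT, so no fold is given.

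Both selectin genes rose and lie on chromosome 1, Sele at chr1:164048234-164057677 and Selp at chr1:164115264-164150026, and their upstream sequence is shown for that reason. Plxnc1 is added because, among the 12 largest rises by the naming rule, only Sele and Plxnc1 had a promoter entry with a searched motif. Sequences are from RefSeq on GRCm38.p6, 5′ to 3′ on the gene's strand, at chr1:164048114-164048233 (plus strand) for Sele, chr1:164115095-164115214 (plus strand) for Selp and chr10:94944874-94944993 (minus strand) for Plxnc1. Capitals mark a match to the AP-1 motif TGANTCA in Sele and Selp and to the interferon-stimulated response element (ISRE) in Plxnc1.
Sele: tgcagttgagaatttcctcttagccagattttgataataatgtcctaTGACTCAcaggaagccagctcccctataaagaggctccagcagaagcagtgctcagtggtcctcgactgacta
Selp: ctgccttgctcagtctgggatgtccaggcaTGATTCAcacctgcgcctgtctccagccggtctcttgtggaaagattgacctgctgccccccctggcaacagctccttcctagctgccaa
Plxnc1: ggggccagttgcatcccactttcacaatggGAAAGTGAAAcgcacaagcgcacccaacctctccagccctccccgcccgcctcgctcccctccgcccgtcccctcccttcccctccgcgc
Both strands of 250 bases before the start were searched for the AP-1 motif, the ISRE, the cAMP response element TGACGTCA, the E-box CACGTG and the hypoxia response element ACGTGC. Of 32851 promoters, 6.75% held the AP-1 motif, 2.98% the ISRE, 1.55% the cAMP response element, 6.02% the E-box and 4.92% the hypoxia response element. Of the 12 largest rises, 6 had a promoter entry, and 1 of these held an AP-1 match and 1 an ISRE match. Of the 12 largest falls, 9 had an entry, with 1 match each for the AP-1 motif, the ISRE, the E-box and the hypoxia response element. A match describes the letters in this window and does not show a bound site.

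Among matrix genes, several with roles in the interstitium rose. Of 27 tested genes of interstitial matrix and its turnover, 12 were higher and 0 lower (median log2 fold change 0.59), with 10 higher without ob/ob male 1 and 8 on TPM. Fn1, which encodes fibronectin, was at 8.68, 11.6 and 23.3 CPM in WT and 43.4, 56.9 and 143 CPM in ob/ob (2.59 ± 0.33, adjusted p = 2.71e-07). Bgn, the proteoglycan biglycan, was at 60.0, 72.0 and 84.7 CPM in WT and 255, 302 and 375 CPM in ob/ob (2.06 ± 0.21, adjusted p = 2.01e-09). Mmp2, a gelatinase that degrades matrix, ran from 5.94 to 12.4 CPM in WT and from 19.8 to 37.3 CPM in ob/ob. Lox, the crosslinker of collagen and elastin, had medians of 0.79 and 3.01 CPM (1.56 ± 0.39, adjusted p = 0.00668). Fibroblast markers summed to 2.95 to 8.01 CPM in WT and 2.65 to 5.56 CPM in ob/ob, with Lum and Dpt at 0 in all 14 libraries. Mesangial markers without Serpine2 and Tagln2 summed to 114 to 285 CPM in WT and 99.8 to 151 CPM in ob/ob. With both genes the mesangial sum had medians of 523 CPM in WT and 563 CPM in ob/ob. The part of these cells in the matrix rises was not tested. Serpine2, a protease inhibitor on the mesangial list, was at 15.4 to 35.5 CPM in WT and 69.9 to 164 CPM in ob/ob (log2 fold change 2.16 ± 0.17, adjusted p = 2.04e-12), while Nt5e and Adamts5 of that list fell. Nt5e encodes the CD73 used to exclude mesangial cells and had medians of 24.4 and 14.0 CPM.

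Basement membrane genes moved in both directions. Of 23 tested, 7 were higher and 3 lower (median log2 fold change 0.13), and on TPM 4 were higher and 4 lower. Col18a1, the source of endostatin, was at 252, 379 and 493 CPM in WT and 671, 793 and 942 CPM in ob/ob (1.13 ± 0.12, adjusted p = 7.29e-09), and Col8a1, a short-chain collagen, had medians of 0.66 and 3.62 CPM (2.25 ± 0.38, adjusted p = 5.29e-05). Col15a1, the closest relative of Col18a1, fell instead, from 259, 320 and 385 CPM to 96.5, 140 and 197 CPM (-1.11 ± 0.16, adjusted p = 2.03e-06). The laminin chains split as well, with Lamb2 rising from a median of 419 to 647 CPM (adjusted p = 8.93e-08) and Lamb1 falling from 218 to 112 CPM (adjusted p = 3.27e-06). Of the collagen IV chains, Col4a2 was called higher (0.43 ± 0.10, adjusted p = 0.00452). Col4a1 had medians of 1552 and 1786 CPM and was not called (0.29 ± 0.11, adjusted p = 0.109, and 0.0657 without ob/ob male 1). Lamb3 was called at levels of 0 in all WT libraries and at most 0.23 CPM in ob/ob, and its call was lost without ob/ob male 1 (adjusted p = 0.0606).

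Receptors for matrix were examined beside their ligands. Of 22 tested integrins and other receptors, 7 were higher and 1 lower (median log2 fold change 0.12), and on TPM 4 were higher and 1 lower. Itgb4, the laminin-binding beta 4 subunit, ran from 6.30 to 20.2 CPM in WT and from 31.0 to 64.3 CPM in ob/ob (1.73 ± 0.18, adjusted p = 4.55e-09). Itga1 and Itga2, the alpha subunits that bind collagen, rose by 0.90 ± 0.13 (adjusted p = 3.84e-06) and 1.64 ± 0.39 (adjusted p = 0.00467), and neither overlapped between genotypes. Itga2 rested on few counts, 77 over all WT libraries. The highest WT library held 14 counts of it and the lowest ob/ob library 15. Itga6, the laminin-binding alpha 6 subunit, fell by 0.53 on the log2 scale (adjusted p = 4.21e-07).

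Genes of vascular tone and shear stress had 11 of 29 tested members higher and 1 lower (median log2 fold change 0.23). On TPM, 6 were higher and 1 lower. Edn1, which encodes the vasoconstrictor endothelin 1, was at 26.7, 38.3 and 68.4 CPM in WT and 95.1, 118 and 176 CPM in ob/ob (1.62 ± 0.19, adjusted p = 4.46e-08). Ednrb, the endothelin B receptor through which endothelium clears endothelin, went down, from 292, 390 and 425 CPM to 136, 191 and 310 CPM (-0.88 ± 0.17, adjusted p = 0.000535). The highest ob/ob library for Ednrb reached into the WT range. Ptgis, prostacyclin synthase, ran from 0.79 to 1.51 CPM in WT and from 3.56 to 9.33 CPM in ob/ob (2.44 ± 0.41, adjusted p = 3.42e-05). Ddah1, which breaks down an inhibitor of nitric oxide synthase, had medians of 2.99 and 8.26 CPM (1.72 ± 0.17, adjusted p = 1.09e-09), and Ace, the angiotensin-converting enzyme, had medians of 34.5 and 68.3 CPM (1.03 ± 0.15, adjusted p = 2.88e-06). The flow-responsive genes Klf2, Klf4 and Nos3 were not called, with log2 fold changes of -0.10 ± 0.15, -0.14 ± 0.13 and 0.10 ± 0.12.

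In the TGF-beta and BMP list, 10 of 28 tested genes were higher and 2 lower (median log2 fold change 0.33). Of all tested genes, 3.99% were higher and 2.18% lower. Without ob/ob male 1, 12 members were higher and 2 lower, and on TPM 9 were higher and 2 lower. Among the ligands, Tgfb2 was at 12.7, 33.5 and 37.6 CPM in WT and 56.3, 57.4 and 106 CPM in ob/ob (1.43 ± 0.24, adjusted p = 6.03e-05), and Bmp4 had medians of 10.4 and 20.9 CPM (1.02 ± 0.22, adjusted p = 0.00149). Tgfb3, another ligand, fell by 0.82 on the log2 scale (adjusted p = 0.0102). Bmper, a secreted BMP modulator, ran from 18.2 to 28.5 CPM in WT and from 53.3 to 80.5 CPM in ob/ob (1.62 ± 0.15, adjusted p = 1.78e-10). Of the intracellular genes, Smad6, an inhibitor of BMP signaling, had medians of 317 and 589 CPM without overlap (0.99 ± 0.13, adjusted p = 2.42e-07), and Atoh8, a transcription factor induced by BMP9, had medians of 7.04 and 15.1 CPM (1.04 ± 0.20, adjusted p = 0.000244).

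Targets of the mechanosensitive coactivator MRTF and its partner SRF are a subject of the study. It proposes activation mainly in mesangial cells and reports comparable MRTFA and MRTFB staining in gECs of control and DN mice. Of 32 tested in gECs, 9 were higher and 0 lower (median log2 fold change 0.20), against 4 higher and 0 lower on TPM and 4 higher and 1 lower with marker covariates. In the fit across cell types at 18 weeks, 20 of 32 were higher in mesangial cells, beside 2647 of all 17892 genes. In podocytes 11 of 32 were higher, beside 1105 of 17892. Acta2, smooth muscle actin, was at 1.84, 4.30 and 6.21 CPM in WT and 6.93, 11.1 and 16.3 CPM in ob/ob (1.56 ± 0.32, adjusted p = 0.00074). It stood beside smooth muscle markers, Acta2 among them, that summed to 15.1 to 19.8 CPM in WT and 17.5 to 28.0 CPM in ob/ob, of which Acta2 was the only 1 of 6 tested that was called, and the part of such cells in its rise was not tested. Filip1l rose by 0.78 ± 0.12 (adjusted p = 6.64e-06) and Cyr61, a matricellular protein, by 0.64 ± 0.16 (adjusted p = 0.00623). Of 22 YAP and TEAD targets, 5 were higher and 1 lower (median log2 fold change 0.05), and on TPM 3 were higher and 3 lower. Immediate early genes, which rise during tissue digestion, had 0 of 26 members called by edgeR (log2 fold changes between -0.53 and 0.31), 4 with an unadjusted p below 0.05 and 1 called by DESeq2. On TPM 1 was lower, and with marker covariates 3 were lower.

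Junction genes had 11 of 24 tested members higher and 0 lower (median log2 fold change 0.17), 4 higher and 1 lower on TPM. Cldn5, the main tight junction claudin of endothelium, ran from 13.4 to 23.3 CPM in WT and from 17.0 to 45.1 CPM in ob/ob (0.86 ± 0.21, adjusted p = 0.00742). Gap junction genes rose most, with Gja1 at 1.17 ± 0.24 (adjusted p = 0.000871) and Gja4 at 0.89 ± 0.13 (adjusted p = 1.95e-06). Of 21 genes of fenestrae, caveolae and endocytosis, 8 were higher and 0 lower, but 5 were higher without ob/ob male 1 and 3 on TPM, Plvap among them in each case. Of 33 glycocalyx genes, 8 were higher and 2 lower, against 1 higher and 2 lower on TPM. The falls were Hs3st1, a heparan sulfate sulfotransferase (-1.16 ± 0.24, adjusted p = 0.00114), and Xylt1, which starts glycosaminoglycan chains (-0.54 ± 0.17, adjusted p = 0.0374). With marker covariates 1 was higher and 3 lower.

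Angiogenic signaling was examined next. Of 33 tested members of the VEGF, angiopoietin and apelin list, 5 were higher and 0 lower, beside 3.99% of all genes higher, and 3 were higher on TPM. Esm1, a proteoglycan of endothelial tip cells, had medians of 28.1 and 77.2 CPM (adjusted p = 0.000414), and Vegfc, the lymphangiogenic ligand, had medians of 3.13 and 5.42 CPM (1.11 ± 0.30, adjusted p = 0.0149). Its receptor gene Flt4 rose by 0.45 ± 0.07 without overlap (adjusted p = 1.21e-05). Vegfa and Angpt2 were not called, with log2 fold changes of 0.08 ± 0.11 and 0.28 ± 0.16. Among Notch and ephrin genes, 3 of 21 were higher, led by the ligand Jag1 (medians of 66.0 and 125 CPM, 1.03 ± 0.16, adjusted p = 1.50e-05).

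Of 31 genes of lipid uptake, fatty acid oxidation and PPAR signaling, 6 were higher and 0 lower (median log2 fold change 0.14). Fabp4, a fatty acid carrier, was at 47.2, 70.0 and 134 CPM in WT and 106, 199 and 248 CPM in ob/ob (1.35 ± 0.205, adjusted p = 6.81e-06). Slc27a3, a fatty acyl-CoA ligase, ran from 8.20 to 11.7 CPM in WT and from 14.9 to 24.0 CPM in ob/ob (1.13 ± 0.13, adjusted p = 1.65e-08). Glycolysis genes had 5 of 27 members higher and 1 lower, against 1 higher and 1 lower on TPM. Oxidative phosphorylation, unfolded protein response and heat shock genes had 0 of 29, 0 of 21 and 0 of 16 tested members called by edgeR, and 9, 5 and 5 members had an unadjusted p below 0.05, and DESeq2 called 0, 1 and 0. Fkbp5, a glucocorticoid target, was the only 1 of 22 such genes called, beside 3.99% of all genes called higher. It had medians of 4.46 and 19.5 CPM (2.02 ± 0.51, adjusted p = 0.00784). Lepr, the leptin receptor, was not called (0.50 ± 0.18, adjusted p = 0.115). Of 7 tested MHC class II genes, 2 were higher and 0 lower. These were Cd74 and H2-Aa, at low medians of 0.80 and 5.10 CPM and of 0.24 and 2.62 CPM. Of 16 tested MHC class I genes, 2 were higher and 0 lower, H2-T22 (adjusted p = 0.0343) and Tapbp (adjusted p = 0.041). Tapbp lost its call without ob/ob male 1 (adjusted p = 0.0532), and on TPM 0 class I genes were called.

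**Figure D4:**
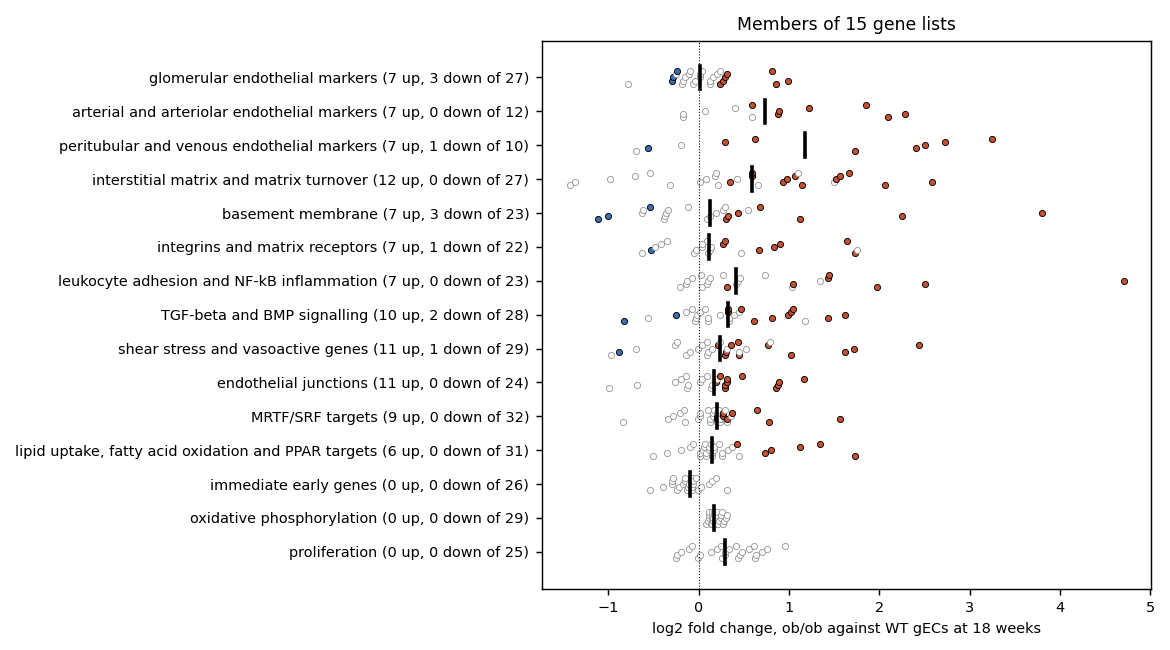
Log2 fold changes (horizontal axis) of all tested members of 15 gene lists, red where called higher, blue where called lower and open where not called, with a black bar at each list's median. The numbers of members called higher and lower stand beside each name, and the points at 4.71 and 3.80 are Ccl2 and Lamb3, which were at or near 0 in WT.

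The ob/ob effect in gECs was set beside that at younger ages. With 8 libraries per genotype, 1235 genes (6.75%) were called at 6 weeks and 1834 (10%) at 12 weeks. Of the 1130 genes called at 18 weeks, 834 were also called at 12 weeks, all in the same direction (73.8% of the 18-week and 45.5% of the 12-week calls). At 6 weeks 513 were also called, 511 of them in the same direction (45.2% of the 18-week and 41.4% of the 6-week calls). At all ages 446 genes were called with the same sign, 300 higher and 146 lower.

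The difference between the effects at 18 and 6 weeks was called for 19 genes (0.104%), 11 more positive and 8 more negative at 18 weeks. For it, 899 genes had an unadjusted p below 0.05, about the share of tested genes that chance gives. DESeq2 called 58 genes, and the test on TPM 8. Plvap was among them, with mean levels of 23.8 and 52.9 CPM in WT and ob/ob at 6 weeks against 18.7 and 179 CPM at 18 weeks (difference of log2 fold changes 2.10 ± 0.30, adjusted p = 0.000117). Cd93 differed by 1.48 ± 0.20 (adjusted p = 3.91e-05) and Met, the receptor of hepatocyte growth factor, by 1.90 ± 0.36 (adjusted p = 0.00912). For both, WT levels were lower at 18 than at 6 weeks. Mean Cd93 was 116 CPM in WT and 177 CPM in ob/ob at 6 weeks, and 52.7 and 222 CPM at 18 weeks. Mean Met was 5.27 and 5.28 CPM at 6 weeks, and 2.31 and 8.60 CPM at 18 weeks. Ednrb changed direction, from 0.61 (adjusted p = 0.0146) at 6 weeks to -0.88 at 18 weeks (difference -1.48 ± 0.24, adjusted p = 0.000869). At 6 weeks Ednrb ran from 363.3 to 510.4 CPM in WT females and from 534.5 to 967.5 CPM in ob/ob females. In males the genotypes overlapped, at 256 to 416.5 CPM in WT and 291 to 519 CPM in ob/ob. Without ob/ob male 1, 14 genes were called, and the differences of Fbln5 (adjusted p = 0.0917), Tm6sf1, Hoxb9, Utrn and Kcnh1 were no longer called.

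Between 18 and 12 weeks, the effect differed for 1 gene (0.00546%) by edgeR, the predicted gene Gm37396, which was named after its value was seen. DESeq2 called 9. By edgeR 907 genes had an unadjusted p below 0.05, about the share of tested genes that chance gives. Plvap had a log2 fold change of 3.05 at 12 weeks and 3.25 at 18 weeks, and Vwf 2.69 and 2.73. Proliferation genes had 16 of 25 members called higher at 6 weeks, 6 at 12 weeks and 0 at 18 weeks, with median log2 fold changes of 1.17, 0.67 and 0.30. Of these members, 2 had an unadjusted p below 0.05 at 18 weeks and DESeq2 called 0. The difference between 18 and 6 weeks was called for 0 of them by edgeR, and 6 had an unadjusted p below 0.05 for it. Adhesion and NF-kB genes had 4, 15 and 7 of 23 members called higher at 6, 12 and 18 weeks.

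**Figure D5:**
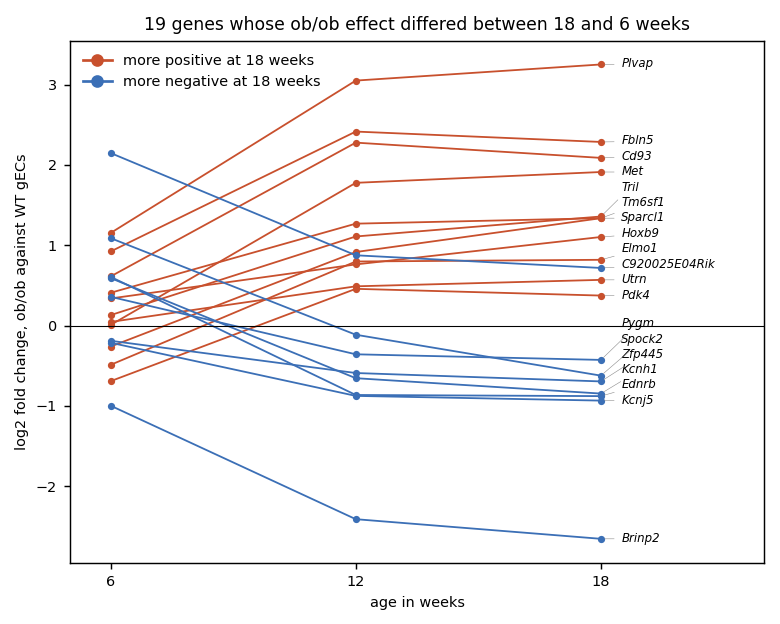
Log2 fold change of ob/ob against WT gECs (vertical axis) at 6, 12 and 18 weeks (horizontal axis) for the 19 genes whose effect differed between 18 and 6 weeks, red where more positive and blue where more negative at 18 weeks. For Plvap the values were 1.15, 3.05 and 3.25.

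Females and males were examined within the 18-week comparison. In a fit with 12 groups, the ob/ob effect was called for 429 of 19407 genes (2.21%) in females and 347 (1.79%) in males. The difference between the sexes was called for 0 genes (0%) by edgeR, and DESeq2 called 9, none of them among the 24 largest rises and falls. By edgeR 575 genes had an unadjusted p below 0.05, less than the share of 0.05 that chance gives. Plvap had log2 fold changes of 3.36 in females and 3.18 in males, Brinp2 -2.49 and -2.80, and Edn1 1.98 and 1.27.

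The effect in gECs was then compared with that in mesangial cells and podocytes of the same age, with 7 libraries per genotype each. Per the study's supplement, these cell types were gated from the same suspension of glomerular cells. The labels do not say whether same-numbered libraries came from the same mouse, and the fit treated them as independent. The effects in gECs and mesangial cells differed for 1364 of 17892 genes (7.62%), and those in gECs and podocytes for 1025 genes (5.73%). With genotype, sex and replicate number as a block across cell types, the counts were 1543 and 1113. Qrfpr and Plvap were among the genes more positive in gECs in both comparisons, Plvap by 3.60 ± 0.23 against mesangial cells and 3.60 ± 0.44 against podocytes. Mesangial libraries held Plvap at 288 ± 38.0 CPM in WT and 223 ± 45.2 CPM in ob/ob (SD, n = 7), above the WT gEC level, while podocyte libraries had means of 0.95 and 0.70 CPM. Vwf differed by 3.04 (adjusted p = 3.56e-07) against mesangial cells, where its log2 fold change was -0.37, and Mgp by 4.32, with a fall in mesangial cells from 18.2 to 6.32 CPM.

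Fn1 and Fbln5 also rose in mesangial cells, and the differences from gECs were not called. The log2 fold changes of Fn1 were 2.59 in gECs and 2.58 in mesangial cells (difference 0.01 ± 0.57), and those of Fbln5 differed by 0.04 ± 0.26. Among genes that were more negative in gECs, Ackr3, a scavenging chemokine receptor, fell in gECs and rose in mesangial cells (difference -3.16, adjusted p = 1.85e-09), and so did Pla2g7, which degrades platelet-activating factor (difference -3.09, adjusted p = 4.14e-09). Akap6 fell in gECs and rose in podocytes from 10.3 to 38.9 CPM (difference -3.57, adjusted p = 1.42e-11).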

How the data were processed

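RNA of sorted gECs was sequenced with the SMART-Seq Stranded Kit. Per the submitters' processing notes, FastQC 0.11.5, Bowtie2 2.3.3.1, RSEM 1.3.0 and mm10 were used, and the annotation release is not given in the sources used here. The authors deposited RSEM expected counts per gene for each library, and the deposited TPM values stand beside them. Gene positions were taken from GENCODE M21 on GRCm38. Expected counts were rounded and tested with edgeR 4.0.16 (R 4.3.3, TMM, filterByExpr, quasi-likelihood) over all 46 gEC libraries, with 6 groups of genotype by age and sex as an additive term. p-values were adjusted by Benjamini-Hochberg over all tested genes and called below 0.05. The SE given with edgeR values is the absolute log2 fold change over the square root of the quasi-likelihood F statistic. It is an approximation, least reliable for genes with very low counts. Sexes were compared in 12 groups, and cell types in 42 libraries of 18 weeks without a mouse term. CPM used TMM library sizes. TPM was tested with limma 3.58.1 on log2(TPM + 0.5), which understates changes of low genes, and DESeq2 1.42.0 was an alternative. Marker covariates were the log2 summed CPM of proximal tubule, podocyte, mesangial and immune markers. Podxl, Clic5, Aqp1, Serpine2 and Tagln2 were left in these sums. The proximal tubule sum had a WT median of 249 CPM at 18 weeks, and 2.61 CPM without Aqp1, Gatm and Ass1.

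Named genes were the 12 largest rises and 12 largest falls among genes called with and without ob/ob male 1, with at least 5 mean CPM in the higher group and no overlap, without predicted, mitochondrial or sex-linked marker genes and without other cell types' markers. From each list up to 4 called members and preset key genes were named, and others were added after their values were seen. The members and lists were chosen with earlier results of these data known. The tests were tested on simulated data. Some items are not reported here.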

Additional observations from a re-analysis of the deposited data

Results flagged for a closer look

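Within groups of 7 libraries, values on the log2 scale were compared with Dixon's 95% limit for 7 values, on the gap to the nearest library over the range. Of 148 groups tested, 8 passed, and chance gives about 1 in 20. ob/ob male 1 was far from the others for the proximal tubule defining markers (99.6 CPM, nearest 6.74), Ehd3 (1703 CPM, nearest 2342) and Col4a1 (1466 CPM, nearest 1717). Plxnc1 was at 77.9 CPM in ob/ob male 2 (nearest 50 CPM), and fibroblast markers were at 2.65 CPM in ob/ob male 4 (nearest 4.19). WT male 1 was apart for Cacna1c (5.3 CPM, nearest 7.1) and Lepr (11.2 CPM, nearest 6.42), and WT male 3 for renin cell markers (0.465 CPM, nearest 1.12).

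The ob/ob effect differed between 18 and 6 weeks by interaction tests for Plvap (2.1), Met (1.9), Brinp2 (-1.66), Ednrb (-1.48) and Kcnh1 (-1.44), each as a difference of log2 fold changes. The difference for Kcnh1 was not called without ob/ob male 1 (adjusted p = 0.0998).

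The effect differed between gECs and mesangial cells for Qrfpr (6.84), Mgp (4.32), Plvap (3.6), Stc1 (3.35), Htr7 (-3.62), Ackr3 (-3.16), Pla2g7 (-3.09), Fam198b (-3.07) and Tmtc1 (-2.87). Qrfpr and Htr7 were below 0.1 CPM on average in mesangial cells. Tmtc1 rose in both cell types, by 0.70 in gECs. Against podocytes the effect differed for Qrfpr (7.9), Plvap (3.6), Klhl6 (3.41), Ackr2 (-5.01), Syk (-4.56) and Akap6 (-3.57).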

How the results depend on the processing

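The 24 largest rises and falls kept their call and direction in all 22 alternatives, of which that without ob/ob male 1 was part of the rule that chose them. That rule took large changes without overlap, which made this likely in the other alternatives too. With the 18-week libraries alone, 1729 genes were called, 681 of them lower, and on TPM 367 were called higher. Leaving out each library in turn gave 908 to 1109 calls. The effect at 18 against 6 weeks was called for 58 genes by DESeq2 and 8 on TPM, that at 18 against 12 weeks for 9 by DESeq2 and 2 without the filter on low counts, and that in females against males for 9 by DESeq2, which were predicted, histone or mitochondrial genes and unnamed models. The causes were not tested.

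Libraries of both genotypes share replicate numbers, but correlations of same-numbered libraries' deviations ran from -0.0588 to 0.133, so the numbers were not taken as pairs. Of 6 WT libraries with a partner, 1 correlated best with its own number, and of 6 ob/ob libraries 0 did. With the replicate number as a block in gECs, 914 genes were called at 18 weeks (591 higher, 323 lower). The same block gave 13 for 18 against 6 weeks and 1 for 18 against 12 weeks. For gECs against mesangial cells and podocytes, the block was instead genotype, sex and replicate number across cell types, with 1543 and 1113 genes called. The correlations above compare genotypes within gECs and do not bear on that block, whose pairing was not tested.

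Low counts limit Qrfpr, Selp, Itga2, H2-Aa, Ccl2 and Lamb3 in WT.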

Other observations

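Further lists were counted beside the 3.99% of all genes called higher and 2.18% called lower. Of 17 coagulation and fibrinolysis genes, 3 were higher and 0 lower, Vwf among them. Of 24 hypoxia targets, 5 were higher and 0 lower, against 3 higher without ob/ob male 1 (Mxi1 and Hif1a were lost, adjusted p = 0.0851 and 0.0793) and 0 on TPM or with marker covariates. Of 24 interferon response genes, 1 was higher, and 0 without ob/ob male 1. Of 24 cholesterol synthesis genes, 1 was lower, Sqle, and its call was lost without ob/ob male 1 (adjusted p = 0.0543).

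Sost, which encodes the secreted Wnt inhibitor sclerostin known from bone, was chosen after its values were seen. It was at 131, 207 and 334 CPM in the lowest, median and highest WT library and at 457, 711 and 945 CPM in ob/ob, without overlap (log2 fold change 1.80 ± 0.24, adjusted p = 7.84e-07).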
